A study of Mus musculus with 10 samples.

Results

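Chemokine ligands are small secreted proteins, or in a few cases membrane-bound ones, that bind G protein-coupled receptors on leukocytes and other cells and set where those cells go. They were taken as a list of 34 mouse genes with CC, CXC, CX3C and XC ligands on it, found in the table by Ensembl identifier and symbol. Of the 34 listed genes, 32 had a row among the 27151 genes of the table, and Ccl19 and Cxcl15 were not analysed here. The RNA came from tongues of C57BL/6J mice that had been given 4NQO, a carcinogen that damages DNA and induces lesions of the oral epithelium. In 6 libraries the mice had received SP2509, an inhibitor of the histone demethylase LSD1, and in 4 libraries the vehicle; 4NQO was common to both groups, and the labels give no age, dose or duration. Each library is whole-tongue poly-A RNA, so that fewer cells of a type and less RNA per cell cannot be told apart.

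Values are normalised reads, the authors' read counts scaled between libraries. Library totals were 15748571 to 19375555 reads in SP2509 and 9180844 to 14768955 in vehicle, so that 1 read was worth 0.727 to 0.873 normalised reads in SP2509 libraries and 0.898 to 1.85 in vehicle libraries. Mitochondrial transcripts took 23.98 to 32.2% of the reads in SP2509 and 35.3 to 52.1% in vehicle. SP2509 replicates 1 and 2, and SP2509 replicates 4 and 5, lay closer to each other than the remaining pairs within either group, with a spread of 3.45 and 3.72 times the Poisson expectation at 1000 to 5000 reads against 10.4 to 178 in the other 19 pairs. SP2509 means ± SD are therefore given over 4 units with each close pair averaged, and vehicle means over 4 libraries. The design text counts 6 SP2509 and 4 vehicle mice, but no label ties a library to a mouse, so p-values measure only the spread between these libraries, which may in part be technical. The tissue showed in its markers: the 8 keratinocyte markers summed to 55333 to 278463 normalised reads in SP2509 and 85730 to 123931 in vehicle, and the 7 skeletal muscle markers to 240839 to 666922 in SP2509 and 125465 to 286669 in vehicle. SP2509 replicate 6 stood furthest apart, with a spread of 161 to 178 times the Poisson expectation against the other 5 SP2509 libraries, where the remaining pairs reached at most 58.4. It had the highest muscle sum, where the other SP2509 libraries had at most 321101, and the lowest keratinocyte sum. SP2509 replicates 4 and 5 also stood apart by transcripts of lingual glands. Their summed level over the 8 gland markers was 333272 and 344197 normalised reads, against 22.3 to 874 in SP2509 replicates 1 to 3 and 6, and 37.1 to 507 in vehicle. Results that rest on these libraries are given with and without them.

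Chemokines are commonly divided by use. Homeostatic ligands, such as Cxcl12, are made continuously by stromal and epithelial cells and place leukocytes in resting tissue, while inflammatory ligands, such as Cxcl10 or Ccl2, are induced by interferons or NF-kB and draw neutrophils, monocytes and effector T cells. Others serve both uses or have no settled class. In oral mucosa and skin, keratinocytes make several ligands of both kinds, among them Cxcl14 and the neutrophil attractants Cxcl1 and Cxcl2. The classes used here follow this textbook division: 8 homeostatic, 14 inflammatory and 12 dual or unclassed genes.

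The ligands were measured unequally. A gene was tested when it reached 10 normalised reads in at least 4 libraries, which left 24 of the 34 genes, and it was called well measured when its mean over the 10 libraries was also at least 50 normalised reads. Of the homeostatic genes 6 of the 7 with a row were well measured, of the inflammatory genes 5 of 14, and of the dual or unclassed genes 5 of 11. These counts include genes whose mean rests largely on few libraries. Ccl28 had 322 and 392 normalised reads in SP2509 replicates 4 and 5, and at most 15.5 in any other library. Cxcl9 and Cxcl10 had 409 and 304 in SP2509 replicate 3, and vehicle means of 24.7 and 26.6. Ccl21a ran from 0 to 160 in vehicle. The homeostatic genes together held 23935 reads over the 10 libraries, the dual or unclassed genes 10991 and the inflammatory genes 5007. Of the homeostatic reads, 16967 were those of Cxcl12, a gene with 8176 bases of annotated exon. The 8 genes below the filter were Ccl3, Ccl4, Ccl5, Ccl12, Ccl17, Ccl20, Cxcl3 and Xcl1, of which 5 are inflammatory. The filter looks at both groups together, so that a gene can pass through 1 of them. Cxcl2 reached 10 normalised reads in 5 SP2509 libraries and in 0 vehicle libraries, and was tested only because it was high in SP2509. Ccl21a, Cxcl5, Cxcl9, Cxcl10, Cxcl13 and Cxcl17 reached it in 4 to 6 SP2509 libraries and in 2 or 3 vehicle libraries.

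Per kb of annotated exon, the highest mean level over all libraries was that of Ccl11, which draws eosinophils, with 236 ± 37.3 normalised reads per kb in SP2509 and 232 ± 74.6 in vehicle (SD, n = 4 each). Cxcl12, the stromal ligand of Cxcr4, came next with 198 ± 29.4 normalised reads per kb in SP2509 and 207 ± 40.5 in vehicle. These neighbours in the order did not differ beyond their spread. The length counts every annotated exon of a gene, 1082 bases for Ccl11 and 8176 for Cxcl12. Their order depends on that choice, since before division Ccl11 had a mean of 255 normalised reads and Cxcl12 one of 1615. Ccl21a, with 121 ± 102 normalised reads per kb in SP2509 and 153 ± 180 in vehicle, was too scattered to be placed against its neighbours. Cxcl14 had 122 ± 69.3 normalised reads per kb in SP2509, where it ranked beside Ccl21a, and 51.3 ± 21.8 in vehicle, where it lay below Ccl27a at 96.6, Ccl6 at 80.1 and Ccl8 at 61.6. Over all libraries the lowest levels were those of Xcl1, with 1.73 normalised reads per kb, and Cxcl3, with 1.13. The median level was 90.0 normalised reads per kb over the 7 homeostatic genes, 17.3 over the 14 inflammatory genes and 41.3 over the 11 dual or unclassed genes.

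**Figure D1:**
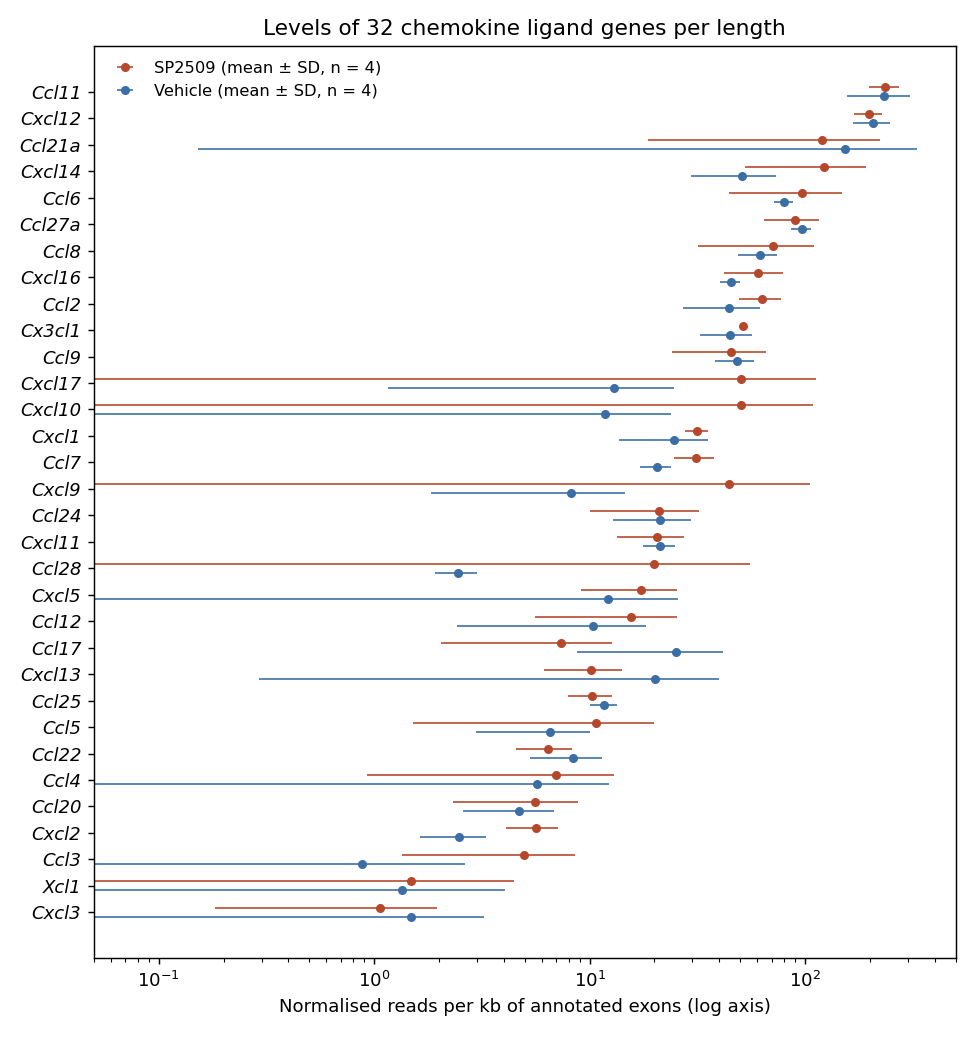
Level of the 32 chemokine ligand genes with a row, in normalised reads per kb of exon on a log axis, as mean ± SD over 4 SP2509 units (close pairs averaged) and 4 vehicle libraries. Error bars that reach the left edge extend to or below 0.05. Where the SD exceeds the mean, as for Ccl21a in vehicle, the lower bar is cut just above 0 and its end is no lower limit. Ccl11 and Cxcl12 lead the order, and most inflammatory genes lie in its lower part.

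Setting SP2509 against vehicle addresses what inhibition of LSD1 does to these ligands in carcinogen-exposed tongue; the series title names Cxcl9 among the genes of interest. Of the 24 tested ligands, 1 rose, the epithelial ligand Cxcl14, and 0 fell (limma over all 17088 tested genes, adjusted p under 0.05), where 4.95% of all tested genes were higher and 4.15% lower. At an unadjusted p under 0.05, 2 ligands were higher and 0 lower, against 15.2% and 12.8% of all tested genes; they were Cxcl14 and the neutrophil attractant Cxcl2, which had passed the filter through SP2509 alone. With other tools on the recovered reads, edgeR called 1 ligand higher, where 5.34% of all tested genes were, and DESeq2 called 2, where 9.47% were. Both called 0 ligands lower, where edgeR called 585 and DESeq2 1388 of all 17088 tested genes lower. The share of ligands called higher was thus near the background. In 0 of the 24 ligands did every SP2509 library lie above every vehicle library, or every one below, a separation that 6.54% and 5.11% of all tested genes showed.

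By direction alone, 16 of the 24 tested ligands had a positive fold change (median 0.34 on the log2 scale), against 51.9% of all tested genes and a median of 0.02. The count varied by class. Of the inflammatory ligands 8 of 9 tested were positive with a median log2 fold change of 0.51, of the homeostatic ligands 3 of 7 with a median of -0.11, and of the dual or unclassed ligands 5 of 8 with a median of 0.15. Without SP2509 replicates 4 and 5 the inflammatory ligands had 7 of 9 positive and a median of 0.52, the homeostatic ligands 3 of 7 and -0.11, and the dual or unclassed ligands 4 of 8 and -0.05. These counts include the genes that passed the filter through SP2509. Over the 16 well measured ligands, 11 were positive with a median of 0.33, of which the inflammatory ligands had 4 of 5 and a median of 0.47, the homeostatic ligands 3 of 6 and 0.14, and the dual or unclassed ligands 4 of 5 and 0.23. The mean of at least 50 also takes both groups together. Cxcl1, Cxcl9, Cxcl10 and Ccl28 reached it through SP2509, with vehicle means of 46.1, 24.7, 26.6 and 11.9 normalised reads. Ccl21a reached it through vehicle, with means of 48.4 in SP2509 and 61.4 in vehicle. The counts over well measured ligands are thus not free of this selection and are no evidence of a difference. The difference between classes was not tested, since genes are not replicates. Summed per library, the inflammatory ligands took 394 to 1066 normalised reads in SP2509 and 247 to 429 in vehicle. The highest sum was that of SP2509 replicate 3, where Cxcl9 and Cxcl10 had 409 and 304 normalised reads. The lowest SP2509 sum, in replicate 6, lay below the highest vehicle sum, and the other 5 SP2509 libraries lay above all 4 vehicle libraries. For SP2509 replicates 1, 2, 4 and 5 the margin was narrow, with sums of 442 to 466 against 429 in vehicle replicate 3. The homeostatic ligands took 1847 to 2677 normalised reads in SP2509 and 1755 to 2626 in vehicle, ranges that overlapped nearly throughout. Most of each of these sums was Cxcl12, which had 1282 to 1991 normalised reads per library.

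**Figure D2:**
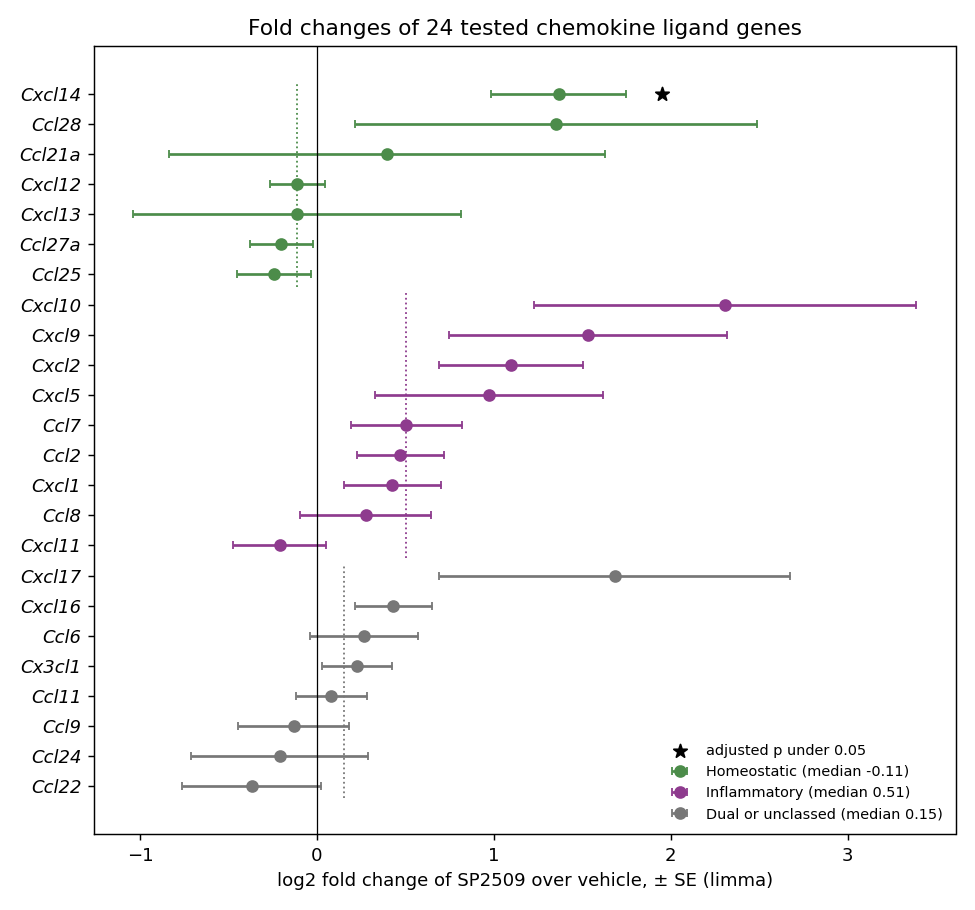
Log2 fold change of SP2509 over vehicle (limma, 10 libraries) for the 24 tested chemokine ligand genes by class, with bars of 1 standard error, dotted lines at the class medians and a star at an adjusted p under 0.05. The inflammatory median of 0.51 lies right of the homeostatic median of -0.11, and Cxcl14 alone carries a star.

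Cxcl14 is a homeostatic ligand of squamous epithelium whose expression is often reduced in head and neck carcinomas, and its receptor is not settled. It had 201, 225, 170, 425, 378 and 107 normalised reads in SP2509 replicates 1 to 6, against 50.1, 109, 74.6 and 141 in vehicle replicates 1 to 4. SP2509 replicate 6 lay inside the vehicle range and the other 5 SP2509 libraries above it. The mean was 223 ± 127 normalised reads in SP2509 and 93.7 ± 39.7 in vehicle (SD, n = 4 each), and the log2 fold change, here as elsewhere ± its standard error, was 1.37 ± 0.38 (limma, adjusted p = 0.045). The call stood close to its threshold: with the close pairs averaged the adjusted p was 0.15, where 0% of all genes passed in either direction, and without SP2509 replicates 4 and 5 the log2 fold change was 0.95 with an adjusted p of 0.129, in a fit that called 1.28% of all tested genes higher and 0.913% lower. Without SP2509 replicate 6 the log2 fold change was 1.58 (adjusted p = 0.0101). Leaving out any single library other than this one or vehicle replicate 4 also ended the call, with log2 fold changes of 1.10 to 1.47 and adjusted p-values of 0.0637 to 0.142. SP2509 replicate 6, the lowest of its group for Cxcl14, was also lowest for the 8 keratinocyte markers, with a summed level of 55333 normalised reads. Elsewhere the order differed. SP2509 replicates 4 and 5, highest for Cxcl14 and rich in gland transcripts, had sums of 134164 and 133335, against 240983 to 278463 in SP2509 replicates 1 to 3. In vehicle the sums were 85730 to 123931. Vehicle replicate 4, highest of its group for Cxcl14, had 103812, and vehicle replicate 1, the lowest, had 114771. The part of these markers in the result was not tested.

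The Cxcl14 gene lies at chr13:56288643-56296551 on the minus strand (mm10). The 250 bases before its RefSeq start (GRCm38.p6, chr13:56296552-56296801, minus strand) are shown because it is the ligand that passed the test. Capitals mark the match to the interferon response type motif (GAAA, 2 free bases, then GAAA again), read on both strands, 162 bases before the start.
Cxcl14: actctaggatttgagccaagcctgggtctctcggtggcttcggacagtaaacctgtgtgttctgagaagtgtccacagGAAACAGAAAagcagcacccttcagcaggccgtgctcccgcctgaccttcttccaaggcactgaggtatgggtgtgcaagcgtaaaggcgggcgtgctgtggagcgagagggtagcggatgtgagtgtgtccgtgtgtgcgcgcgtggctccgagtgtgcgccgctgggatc
This motif was present in the same window of 2.97% of 32817 mouse promoters and of 3 of the 24 ligands whose promoter was matched, Ccl19, Cxcl10 and Cxcl14. Such a match describes the letters only and is no measured site.

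Among the other homeostatic ligands, none passed the test (limma, lowest adjusted p = 0.466). Cxcl12, which retains Cxcr4-bearing leukocytes and progenitors, had 1282 to 1864 normalised reads in SP2509 (median 1569) and 1296 to 1991 in vehicle, with a log2 fold change of -0.11 ± 0.15 (adjusted p = 0.683). Ccl27a, the keratinocyte ligand of Ccr10, had 151 to 304 normalised reads in SP2509 (median 190) and 213 to 266 in vehicle (-0.20 ± 0.18, adjusted p = 0.489). Ccl25, known from gut and thymus as the ligand of Ccr9, had 52.3 to 100 normalised reads in SP2509 (median 70.3) and 76.0 to 105 in vehicle (-0.24 ± 0.21, adjusted p = 0.477). The 7 markers of fibroblasts, which make Cxcl12, summed to 10436 to 12988 normalised reads in SP2509 and 9607 to 12107 in vehicle; 4 were positive and 1, Col3a1, fell (-0.67 ± 0.19, adjusted p = 0.0427; 0.122 with the close pairs averaged; kept in 1 of 10 fits without a single library, that without SP2509 replicate 6). For Cxcl12, Ccl27a and Ccl25 the ranges of the groups overlapped, and the standard error was at most 0.21 on the log2 scale. For Ccl27a, however, SP2509 replicates 1 to 5, at 182, 151, 189, 206 and 190, lay below all vehicle libraries. Only SP2509 replicate 6, at 304, lay above them, and without it the log2 fold change was -0.32 (limma, adjusted p = 0.103). For Ccl25, 4 SP2509 libraries lay below all vehicle libraries, and without SP2509 replicate 6 it was -0.33 (adjusted p = 0.26). Ccl27a overlaps Il11ra1, and Ccl25 overlaps Elavl1, on the opposite strand, and strand use in the counting is not given in the sources used here.

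Ccl28, a mucosal ligand of Ccr10 that salivary glands secrete, split the SP2509 group. It had 322 and 392 normalised reads in SP2509 replicates 4 and 5, 6.70 to 12.2 in the remaining 4 of the group and 9.21 to 15.5 in vehicle. The same 2 libraries held the gland markers, with the salivary mucin Muc5b at 270597 and 281216 normalised reads against 6.70 to 644 in those 4 and 0 to 347 in vehicle. The log2 fold change of Ccl28 was 1.35 ± 1.14 (limma, adjusted p = 0.466) over 10 libraries and -0.38 (adjusted p = 0.62) without replicates 4 and 5. DESeq2 on all 10 libraries called it higher (adjusted p = 0.038), and edgeR did not (log2 fold change 3.40, adjusted p = 0.164). Cxcl17, an unclassed ligand of mucosal epithelia, was also highest there. It had 117 and 96.7 normalised reads in replicates 4 and 5, 1.75 to 31.7 in the remaining 4 and 1.80 to 19.96 in vehicle, with a log2 fold change of 1.68 ± 0.99 (adjusted p = 0.286) over 10 libraries and 0.62 (adjusted p = 0.71) without these 2.

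**Figure D3:**
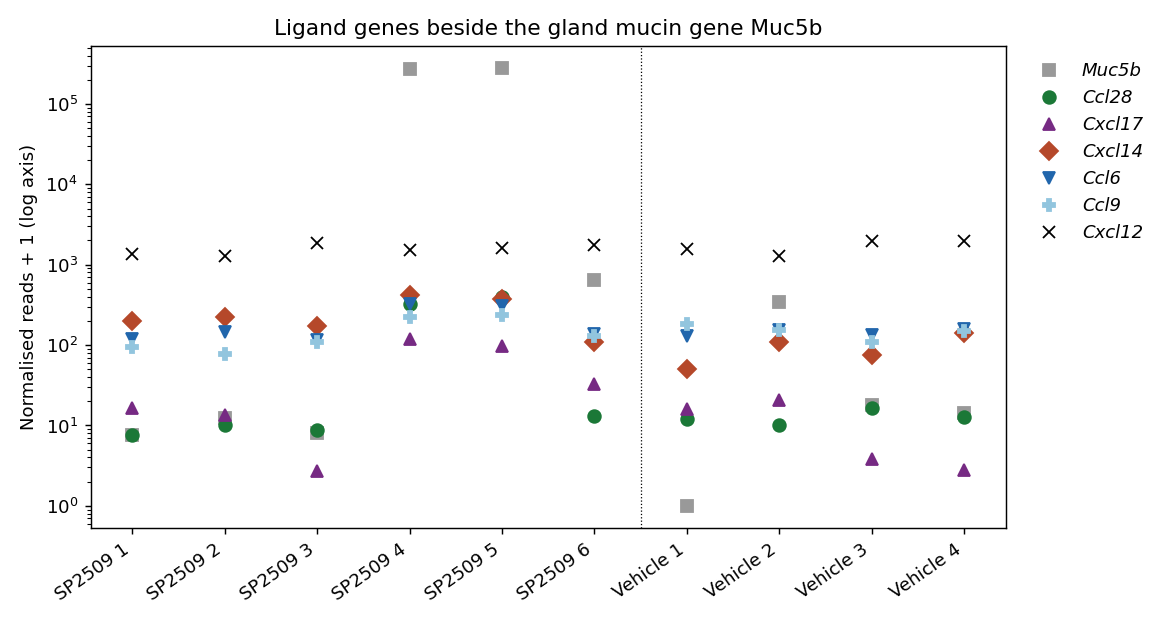
Normalised reads on a log axis of the gland mucin Muc5b and of Ccl28, Cxcl17, Cxcl14, Ccl6, Ccl9 and Cxcl12 in each library, SP2509 replicates 1 to 6 left of vehicle replicates 1 to 4. Muc5b and Ccl28 are highest in SP2509 replicates 4 and 5, while Cxcl12 lies between 1282 and 1991 in all 10 libraries.

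The ligands of lymphoid tissue were scattered in both groups. Ccl21a, made by lymphatic endothelium for Ccr7-bearing dendritic and T cells, had 8.30 to 103 normalised reads in SP2509 (median 21.4) and 0, 15.4, 70.4 and 160 in vehicle replicates 1 to 4. Its log2 fold change of 0.40 ± 1.23 (limma, adjusted p = 0.868) was -1.06 without vehicle replicate 1, the library at 0. The row belongs to a copy on an unplaced scaffold (JH584294.1), and another annotated copy lies on chromosome 4. Reads could be shared between such copies, so this value is uncertain. Cxcl13, the B cell attractant of follicles, had 3.32 to 18.1 normalised reads in SP2509 (median 11.3) and 0 to 52.1 in vehicle (-0.11 ± 0.93, adjusted p = 0.954); its log2 fold change was -1.002 in edgeR and -1.06 in DESeq2.

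**Figure D4:**
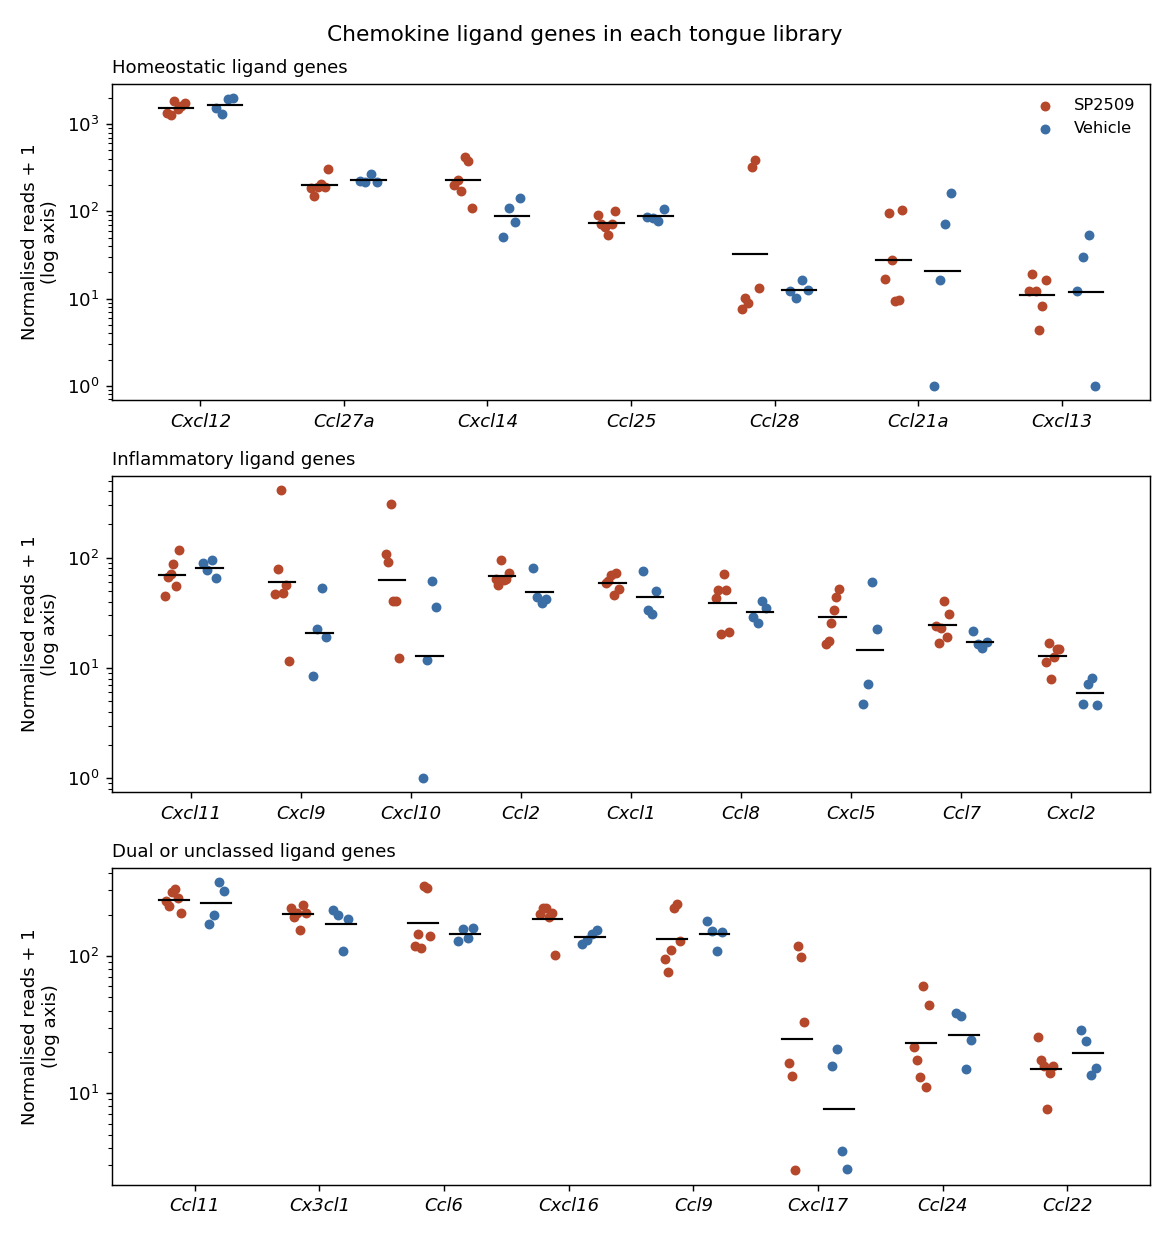
Normalised reads of the 24 tested chemokine ligand genes by class, on a log axis, with 1 point per library, SP2509 left and vehicle right of each gene, and black lines at the geometric mean of normalised reads + 1. Cxcl9, Cxcl10 and Ccl28 spread widely in SP2509, whereas Cxcl12, Ccl27a and Ccl11 lie close together in both groups.

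Among the inflammatory ligands, the largest fold changes were those of Cxcl9 and Cxcl10, which interferon-gamma induces and which draw T and NK cells through Cxcr3. Neither passed the test. Cxcl10 had 107, 90.7, 304, 39.8, 39.3 and 11.4 normalised reads in SP2509 replicates 1 to 6, against 0, 10.7, 60.5 and 35.02 in vehicle replicates 1 to 4. The mean was 113 ± 132 normalised reads in SP2509 and 26.6 ± 27.0 in vehicle (SD, n = 4 each), and the log2 fold change 2.31 ± 1.08 (limma, adjusted p = 0.186). Cxcl9 had 46.2, 78.4, 409, 47.3, 56.0 and 10.6 normalised reads in SP2509, against 7.42, 21.5, 52.1 and 18.0 in vehicle, with a log2 fold change of 1.53 ± 0.79 (adjusted p = 0.225) and means of 133 ± 185 in SP2509 and 24.7 ± 19.2 in vehicle. SP2509 replicate 3 was highest and replicate 6 lowest of its group for both genes. The groups overlapped: SP2509 replicates 1, 4 and 6 lay inside the vehicle range for Cxcl9, and SP2509 replicates 4, 5 and 6 for Cxcl10. The values rested on few reads, 772 for Cxcl9 and 718 for Cxcl10 over the 6 SP2509 libraries, and 75 and 89 over the 4 vehicle libraries. With single libraries left out, the log2 fold change of Cxcl9 lay between 0.98 (without SP2509 replicate 3) and 2.01 (without SP2509 replicate 6), and that of Cxcl10 between 1.08 (without vehicle replicate 1) and 3.07 (without vehicle replicate 3). In edgeR they were 2.15 and 1.88. Cxcl10 overlaps Art3, and Cxcl11 overlaps Gm2673, on the opposite strand. The third Cxcr3 ligand, Cxcl11, is annotated as a polymorphic pseudogene; it had 43.9 to 116 normalised reads in SP2509 (median 67.5) and 63.8 to 94.3 in vehicle (-0.21 ± 0.26, adjusted p = 0.638), so that the vehicle libraries lay inside the SP2509 range.

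Cxcl9 and Cxcl10 lie beside each other on chromosome 5, at chr5:92321347-92328079 and chr5:92346638-92348889 on the minus strand (mm10). Their upstream windows of 250 bases are shown as the interferon-inducible promoters that these fold changes belong to (RefSeq GRCm38.p6, minus strand, chr5:92328080-92328329 for Cxcl9 and chr5:92348890-92349139 for Cxcl10). In Cxcl10, capitals mark from left to right that interferon response type motif 203 bases before the start, the kappaB-type motif (GGG, 3 free bases, then TTCC) 149 and 94 bases before it, and the AP-1 motif TGANTCA 67 bases before it, all searched on both strands.
Cxcl9: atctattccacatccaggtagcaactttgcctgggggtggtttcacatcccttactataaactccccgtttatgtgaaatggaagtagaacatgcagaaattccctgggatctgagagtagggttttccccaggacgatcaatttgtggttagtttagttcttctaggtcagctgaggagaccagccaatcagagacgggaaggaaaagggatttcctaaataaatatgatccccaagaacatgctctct
Cxcl10: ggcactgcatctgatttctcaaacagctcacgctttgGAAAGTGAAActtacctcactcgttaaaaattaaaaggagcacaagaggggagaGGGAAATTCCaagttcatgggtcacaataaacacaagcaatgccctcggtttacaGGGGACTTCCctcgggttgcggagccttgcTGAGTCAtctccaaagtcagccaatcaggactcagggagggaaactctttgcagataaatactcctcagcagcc
The Cxcl9 window holds none of these 3 motifs and so has no capitals, which says only that the letters are not in this stretch. The kappaB-type motif was in 4.65% and the AP-1 motif in 6.75% of the 32817 promoters, and in 6 and 3 of the 24 matched ligands, with Ccl9, Ccl20, Cxcl1, Cxcl2, Cxcl3 and Cxcl10 holding the kappaB-type motif and Ccl9, Ccl27a and Cxcl10 the AP-1 motif.

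The ligands of Cxcr2 bring neutrophils into tissue, and none of those tested passed. Cxcl2 had 10.4, 15.7, 6.98, 11.6, 13.8 and 13.8 normalised reads in SP2509 replicates 1 to 6, against 3.71, 6.14, 7.04 and 3.59 in vehicle replicates 1 to 4. Only SP2509 replicate 3 fell inside the vehicle range, but the whole rests on 91 reads in SP2509 and 15 in vehicle. The log2 fold change was 1.10 ± 0.41, with an unadjusted p of 0.0192 and an adjusted p of 0.104 (limma). As the filter let Cxcl2 in through its SP2509 values, neither its sign nor these p-values are evidence of a difference. Cxcl1 had 44.8 to 72.0 normalised reads in SP2509 (median 59.2) and 29.6 to 74.2 in vehicle (0.42 ± 0.27, adjusted p = 0.332). Cxcl5, an epithelial ligand, had 15.6 to 50.5 normalised reads in SP2509 (median 28.4) and 3.71 to 59.1 in vehicle (0.97 ± 0.64, adjusted p = 0.344). In both genes the vehicle range enclosed the SP2509 range. Cxcl3 was below the filter with 23 reads in the 6 SP2509 libraries and 14 in the 4 shallower vehicle libraries. Its means were 3.73 normalised reads in SP2509 and 5.21 in vehicle. The neutrophil-associated transcripts S100a8 and S100a9 were also positive in fold change, with S100a8 at 1115 to 5103 normalised reads in SP2509 and 184 to 1005 in vehicle (1.92 ± 0.56, adjusted p = 0.0514), but keratinocytes also make both, and Csf3r, a receptor of neutrophils, had 21.1 to 49.8 normalised reads in SP2509 and 21.5 to 63.3 in vehicle. Over the neutrophil list of 10 genes, 8 had a row and 3 were tested, of which limma and edgeR called 0 and DESeq2 2 higher. The summed level of the list was 1664 to 8530 normalised reads in SP2509 and 256 to 1570 in vehicle. That sum includes S100a8 and S100a9, so it does not stand for neutrophils alone, and 5 of the genes with a row were not tested. The part of this list in the values of the ligands was not tested.

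Cxcl3, Cxcl1 and Cxcl2 stand in the same cluster of chromosome 5. The 120 bases before their RefSeq starts are shown because these relatives share a pattern there (GRCm38.p6, plus strand, chr5:90785981-90786100 for Cxcl3, chr5:90891125-90891244 for Cxcl1 and chr5:90903779-90903898 for Cxcl2). Capitals mark that kappaB-type motif on either strand, and the longer capital run at the palindrome is a pair of overlapping matches on opposite strands.
Cxcl3: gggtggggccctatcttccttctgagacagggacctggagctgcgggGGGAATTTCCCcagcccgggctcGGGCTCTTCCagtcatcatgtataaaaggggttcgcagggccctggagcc
Cxcl1: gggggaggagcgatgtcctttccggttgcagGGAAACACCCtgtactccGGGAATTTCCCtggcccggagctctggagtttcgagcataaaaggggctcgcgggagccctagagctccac
Cxcl2: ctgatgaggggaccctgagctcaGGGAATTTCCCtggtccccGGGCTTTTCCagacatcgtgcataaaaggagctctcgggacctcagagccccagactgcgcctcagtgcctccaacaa
Each holds 3 matches, the nearest 40, 60 and 68 bases before the start of Cxcl3, Cxcl1 and Cxcl2 in that order. Of the 3 genes Cxcl1 was well measured, Cxcl2 was tested at a low level and Cxcl3 was below the filter. The promoters of Cxcl5, Cxcl11, Cxcl16, Cxcl17, Ccl2, Ccl4, Ccl5, Ccl7, Ccl11 and Ccl24 were not matched.

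The monocyte attractants Ccl2 and Ccl7, ligands of Ccr2, were positive in fold change and did not pass. Ccl2 had 56.1 to 94.3 normalised reads in SP2509 (median 62.5), against 79.7, 43.0, 38.0 and 41.3 in vehicle replicates 1 to 4, with a log2 fold change of 0.47 ± 0.25 (limma, adjusted p = 0.233). All 6 SP2509 libraries lay above vehicle replicates 2 to 4, and vehicle replicate 1 lay above all but SP2509 replicate 3. Ccl7 had 15.7 to 39.8 normalised reads in SP2509 (median 22.5) and 14.1 to 20.4 in vehicle (0.51 ± 0.31, adjusted p = 0.314). Ccl8, in mouse a ligand of Ccr8, had 19.2 to 69.7 normalised reads in SP2509 (median 45.6) and 24.6 to 39.4 in vehicle (0.28 ± 0.37, adjusted p = 0.667), and its direction turned to -0.04 without SP2509 replicates 4 and 5. The third Ccr2 ligand, Ccl12, was below the filter with 72 reads in SP2509 and 16 in vehicle. The T cell and macrophage products Ccl3, Ccl4 and Ccl5 were also below it: Ccl3 had 34 reads in SP2509 and 3 in vehicle, Ccl4 had 26 and 14, and Ccl5 had 68 and 21, in 6 and 4 libraries of unequal depth. No fold change is given for genes below the filter.

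Among the dual or unclassed ligands none passed the test. Cxcl16, a transmembrane ligand of Cxcr6 that is also shed, came nearest. It had 202, 223, 222, 192, 203 and 100 normalised reads in SP2509 replicates 1 to 6, against 121, 131, 142 and 154 in vehicle replicates 1 to 4. SP2509 replicates 1 to 5 lay above all vehicle libraries and replicate 6 below all of them, and the means were 183 ± 56.1 normalised reads in SP2509 and 137 ± 14.3 in vehicle (SD, n = 4 each). The log2 fold change was 0.43 ± 0.22 (limma, adjusted p = 0.212), and without SP2509 replicate 6 it was 0.61 (adjusted p = 0.00779), a fit in which 11.5% of all tested genes were called higher. Cxcl16 lies at chr11:70453983-70459984 (mm10) and overlaps Zmynd15 on the opposite strand. Cx3cl1, the other transmembrane ligand, which binds Cx3cr1 on monocytes and macrophages, had 153 to 233 normalised reads in SP2509 (median 204) and 107 to 215 in vehicle (0.23 ± 0.20, adjusted p = 0.488).

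Ccl6 and Ccl9, rodent ligands of Ccr1 made by myeloid cells, were high in the libraries with gland transcripts. Ccl6 had 319 and 309 normalised reads in SP2509 replicates 4 and 5, 113 to 143 in the remaining 4 and 128 to 158 in vehicle. Its log2 fold change was 0.26 ± 0.31 (limma, adjusted p = 0.61) over 10 libraries and -0.17 without these 2. Ccl9 had 224 and 236 normalised reads in these libraries, 75.9 to 127 in the remaining 4 and 107 to 180 in vehicle, with -0.13 ± 0.31 (adjusted p = 0.824) over 10 libraries and -0.53 (adjusted p = 0.187) without them. The 10 macrophage markers summed to 3477 and 3629 normalised reads in SP2509 replicates 4 and 5, 1956 to 2813 in the remaining 4 and 1444 to 2587 in vehicle. Of these markers 7 were positive, C1qb rose (0.92 ± 0.24, adjusted p = 0.0357) and Mertk fell (-0.53 ± 0.13, adjusted p = 0.0333); with the close pairs averaged the adjusted p-values were 0.124 and 0.107, and each call held in 3 of the 10 fits without a single library. Their part in the values of Ccl6 and Ccl9 was not tested.

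The eosinophil attractants Ccl11 and Ccl24, ligands of Ccr3, showed no difference beyond the spread. Ccl11, well measured, had 206 to 306 normalised reads in SP2509 (median 256) and 171 to 342 in vehicle (0.08 ± 0.20, limma, adjusted p = 0.827). Ccl24 had 10.2 to 59.7 normalised reads in SP2509 (median 18.7) and 14.1 to 37.1 in vehicle (-0.21 ± 0.50, adjusted p = 0.824). Of the Ccr4 ligands, which dendritic cells make, Ccl22 had 6.64 to 24.6 normalised reads in SP2509 (median 14.7) and 12.7 to 27.8 in vehicle (-0.37 ± 0.39, adjusted p = 0.572). Ccl17 was below the filter with 25 reads in the 6 SP2509 libraries and 36 in the 4 shallower vehicle libraries. Beside this, all 8 tested dendritic cell markers had a negative fold change, 1 of them, Itgax, past the test with up to 69.8 normalised reads in SP2509 and at least 76.3 in vehicle (-1.06 ± 0.27, adjusted p = 0.0351; 0.107 with the close pairs averaged and up to 0.111 without single libraries; edgeR called 1 and DESeq2 2 of the list lower), and the list summed to 271 to 429 normalised reads in SP2509 and 442 to 573 in vehicle; its part was not tested. Ccl20, the Ccr6 ligand of inflamed epithelium, had 50 reads in SP2509 and 19 in vehicle, and Xcl1, a product of T and NK cells that binds Xcr1 on dendritic cells, had 8 and 2.

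On the receiving side, 16 of 18 chemokine receptors had a row and 10 were tested, of which 2 had a positive fold change, 0 passed the test and 1 was lower at an unadjusted p under 0.05 (limma, median log2 fold change -0.14; edgeR and DESeq2 called 0 in either direction). That 1 was Ccr2, the receptor of Ccl2 and Ccl7, with 75.5 to 150 normalised reads in SP2509 (median 99.3) and 115 to 208 in vehicle (-0.56 ± 0.22, adjusted p = 0.117), opposite in sign to both ligands. Ccr1 had a log2 fold change of 0.68 ± 0.36 (adjusted p = 0.238), Cxcr6, the receptor of Cxcl16, one of 0.85 ± 0.65 (adjusted p = 0.41), Ccr7 one of -0.72 ± 0.58 (adjusted p = 0.439) and Cxcr4 one of -0.30 ± 0.25 (adjusted p = 0.448). Cxcr3, the receptor of Cxcl9 and Cxcl10, was below the filter with 20 reads in SP2509 and 22 in vehicle, and so was Cxcr2 with 36 and 8. Neither receptor was tested, and these reads come from 6 and 4 libraries of unequal depth.

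Of the 5 atypical receptors, which bind chemokines without signalling through G proteins and mostly remove them, 1 rose. Ackr4, which takes up Ccl19, Ccl21 and Ccl25, had 117, 146, 156, 182, 193 and 165 normalised reads in SP2509 replicates 1 to 6, against 26.0, 49.1, 83.1 and 123 in vehicle replicates 1 to 4. SP2509 replicate 1 alone lay below the highest vehicle library. The log2 fold change was 1.38 ± 0.35 (limma, adjusted p = 0.0332), and with the close pairs averaged the adjusted p was 0.109. The call was kept when SP2509 replicate 1 or 6, or vehicle replicate 3 or 4, was left out, and ended without any other single library, with log2 fold changes of 0.98 to 1.72 over the 10 omissions. Of the 5 markers of lymphatic endothelium 4 were positive and 0 passed (limma; 2 higher at an unadjusted p under 0.05; edgeR and DESeq2 called 0), and they summed to 802 to 995 normalised reads in SP2509 and to 538, 643, 870 and 963 in vehicle replicates 1 to 4, where replicate 1 was lowest and replicate 4 highest for Ackr4 too; their part was not tested. Ackr3, a scavenger of Cxcl12, had 411 to 604 normalised reads in SP2509 and 304 to 427 in vehicle (0.42 ± 0.14, adjusted p = 0.0758). Ackr1, Ackr2 and Ccrl2 did not pass.

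The lists of genes that share inducers with the ligands mostly did not pass the test. Of 19 tested interferon-gamma inducible genes, 13 were positive (median log2 fold change 0.34), and 0 passed in the 10-library fit, with 6 higher and 1 lower at an unadjusted p under 0.05; edgeR called 1 higher, Irgm1, and DESeq2 called 2 higher and 1 lower. The smallest p-values were those of the GTPases Irgm1 (0.49 ± 0.14, adjusted p = 0.0531), Gbp2 (0.98 ± 0.31, adjusted p = 0.0665) and Igtp (0.61 ± 0.25, adjusted p = 0.142) and of the MHC class II activator Ciita (-0.78 ± 0.26, adjusted p = 0.0794). Without SP2509 replicates 4 and 5, 1 gene of the list passed, the transcription factor Irf8, with a log2 fold change of -0.86 (adjusted p = 0.0461). Of 16 tested NF-kB feedback and target genes, 10 were positive with a median of 0.13, and 1 rose, the inhibitor gene Nfkbib, with 299 to 407 normalised reads in SP2509 and 265 to 287 in vehicle (0.43 ± 0.11, adjusted p = 0.0359; 0.0925 with the close pairs averaged). The Nfkbib call was kept without SP2509 replicate 2 or 6 and ended without any other single library (adjusted p up to 0.097). Il1b (1.03 ± 0.34, adjusted p = 0.0708), Icam1 (0.42 ± 0.14, adjusted p = 0.0765) and Birc3 (-0.50 ± 0.17, adjusted p = 0.0795) did not pass in limma; edgeR called 1 gene of this list higher, and DESeq2 called 2 higher and 1 lower. Of 12 tested genes of chemokine processing and presentation, 9 were positive and 0 passed, led by the heparan sulfate polymerases Ext1 (0.47 ± 0.17, adjusted p = 0.0963) and Ext2 (0.42 ± 0.16, adjusted p = 0.106), with 3 higher and 1 lower at an unadjusted p under 0.05, where edgeR called 0 and DESeq2 1 lower, the elastase gene Mmp12. Of 7 further ligands outside the 34, 4 had a row and 2 were tested, the platelet ligands Pf4 (0.37 ± 0.29, adjusted p = 0.439) and Ppbp (-0.81 ± 0.79, adjusted p = 0.535).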

How the data were processed

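The authors deposited 1 table of normalised reads per gene, a signal scaled between libraries; HISAT2, featureCounts and mm10 are named in the submitters' processing notes, with neither versions nor settings. RNA was poly-A selected and primed with random hexamers, per the labels. In all 10 libraries 100% of the deposited signal values were whole multiples of 1 read within 0.01, so read counts were recovered by division. Identifiers were matched to symbols with the GENCODE M21 annotation (27139 of 27151 genes), and promoters to RefSeq. Genes at 10 or more normalised reads in at least 4 libraries (17088) were tested with limma (3.58.1; log2 of value + 1, intensity trend, robust, two-sided), SP2509 over vehicle, with Benjamini-Hochberg adjustment over all of them and a threshold of 0.05. The added 1 draws ratios of low values towards 0, and fold changes of genes with few reads can be larger or smaller than in the count tests. The alternatives were the count tests of edgeR (4.0.16) and of DESeq2 (1.42.0), run on those reads, other pseudocounts, filters and scalings, a replicate block, close pairs averaged and libraries left out; 4 of them, which join edgeR or DESeq2 with the close pairs summed, or leave out SP2509 replicates 4 and 5 in edgeR or with pairs averaged, were added after seeing the data. The analysis was tested on simulated data. All 34 members are named; full values are given for called members, Cxcl9, Cxcl10 and, in each class, the 3 of smallest p and that of highest mean; of the pathway lists for the called genes and the 4 of smallest p, and of the marker lists for the called genes. The members and lists were chosen with earlier results of these data known.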

Additional observations from a re-analysis of the deposited data

Results flagged for a closer look

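In 48 groups of 4 (the vehicle libraries, or the SP2509 units with each close pair averaged, for each of the 24 tested ligands), 6 had a highest or lowest value whose gap to its neighbour exceeded the share of the group's range that Dixon's 95% limit for 4 values sets; chance gives about 1 in 20 such groups. Ccl28, the gland-secreted ligand, had a mean of 357 normalised reads in SP2509 replicates 4 and 5, with a gap of 0.988 of the range. The myeloid ligand Ccl6 had a mean of 314 in the same 2 libraries, with a gap of 0.88. Cxcl9 had 409 normalised reads in SP2509 replicate 3, with a gap of 0.87, and Cxcl2 had 6.98 in that library, the lowest value of its group, with a gap of 0.836. In vehicle, Ccl2 had 79.7 normalised reads in replicate 1 and Ccl27a had 266 in replicate 3, with gaps of 0.88 and 0.863 of the range.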

How the results depend on the processing

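Of the 24 tested ligands, 13 kept their direction in 27 alternatives and Ccl22, Cxcl2 and Cxcl17 in the 26 that gave them a value (none with the filter at 20); 0 were called lower in any, and 12 to 17 were positive, against 16 in the reported fit. Cxcl14 was positive in 27 of 27 (0.85 to 1.59) and called in 11. Ligands called higher numbered 1 as reported, 0 without a filter, with rescaling outside mitochondrial genes, with close pairs averaged (with or without SP2509 replicates 4 and 5), without these 2 libraries in limma or edgeR, and with edgeR on summed pairs, 2 with DESeq2 (Cxcl14 and Ccl28), and 0 to 2 without single libraries; without the intensity trend it was 1, Cxcl2 in place of Cxcl14.

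Genes called higher (846 reported) numbered 553 without a filter, 297 with rescaling outside mitochondrial genes, 458 without the trend, 1618 with DESeq2, 219 without SP2509 replicates 4 and 5 (322 in edgeR), and 171 to 1971 without single libraries, the highest without SP2509 replicate 6. Genes called lower (709 reported) numbered 1442 with that rescaling, 448 without the trend, 1388 with DESeq2, 156 without SP2509 replicates 4 and 5 (142 in edgeR), and 107 to 1488 without single libraries. With close pairs averaged 0 genes passed in either direction (limma, lowest adjusted p = 0.0715, 3653 at an unadjusted p under 0.05), likewise with replicates 4 and 5 also left out (0.131, 3179), and with edgeR on summed pairs (0.0691, 3875), while DESeq2 on summed pairs called 862 higher and 814 lower, Cxcl14 among them (adjusted p = 0.0464). The higher share of calls was 54.4% as reported, 38.6% with quantile normalization and 17.1% with rescaling outside mitochondrial genes, which shifted the median of all genes by -0.15; the median over the ligands was then 0.20 and that over all genes -0.13. The cause of these shifts was not tested, and averaging also leaves fewer units.

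Replicate numbers did not pair the libraries: deviations of same-numbered libraries correlated at 0.13, 0.03, -0.20 and 0.13, and 2 of 4 matched their own number best. With the replicate block 1125 genes were higher and 769 lower, and 3 ligands were called higher, Cxcl14, Cxcl16 (limma, adjusted p = 0.0476) and Cxcl9 (0.0099). SP2509 replicates 5 and 6 share their number with no vehicle library, so the fold changes of this fit rest on replicates 1 to 4 alone. It thus leaves out SP2509 replicate 6, the lowest of its group for Cxcl14, Cxcl16 and Cxcl9.

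Log2 fold changes that changed sign were, without SP2509 replicates 4 and 5 (limma, edgeR, and limma with pairs averaged), Ccl28 (-0.38, -0.37, -0.33), Ccl6 (-0.17, -0.13, -0.18), Ccl8 (-0.042 in limma, -0.24 averaged), Cxcl13 (0.32 in limma, 0.31 averaged) and, in edgeR, Ccl11 (-0.0052) and Ccl21a (-0.047). Ccl11 was -0.0052 with quantile normalization and -0.068 outside mitochondrial genes. Ccl21a was -0.020 at pseudocount 5, -0.52 in edgeR, -0.53 in DESeq2, and -0.38 and -0.37 in these on summed pairs. Ccl9 was 0.0015 in edgeR, Ccl24 was 0.016 with quantile normalization, 0.015 in edgeR and 0.0041 on summed pairs, and Cxcl13 was 0.083 at pseudocount 0.5. Without single libraries, sign changes gave -0.084 to 0.25 for Ccl11, -1.06 to 1.38 for Ccl21a, -0.30 to 0.026 for Ccl9 and -1.30 to 0.61 for Cxcl13. Low counts limit Cxcl2 and the 8 untested ligands.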
